A study of Rattus norvegicus with 4 samples.

Results

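A family of 137 overlapping small RNA sequences, named here after novel_5384_x347, the member with the most tags over all libraries, was examined among the 3129 sequences of a small RNA data set from rat hippocampus. Sequences that shared any identical stretch of 20 bases were joined, transitively, into 307 families, and the members are all sequences of the family that holds novel_5384_x347. The joining used sequence alone. The family itself was picked for description on its measured values, because its summed tags were higher in the ischemia library than in the Sham library. The comparison of those 2 libraries is therefore given as a description and supports nothing further. Ratios that set either of them against another library carry part of that choice too. The name 18S rRNA comes from earlier work on these data and from general knowledge of this RNA. It was not checked against a reference, because no rRNA sequence was used here.

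Male Wistar rats, 7 to 8 weeks old, gave hippocampal CA1 tissue, and the RNA was recovered by RNA immunoprecipitation (RIP), in which an antibody pulls down a protein with the RNA bound to it. The series concerns piRNAs bound to Piwil2 in transient global cerebral ischemia, tGCI in the labels. There were 4 libraries, 1 for each group: Sham, tGCI26h (whose name gives 26 h), HPC0h (whose name gives 0 h, with HPC not spelled out) and an IgG control. The design text gives 3 replicates for each of Sham, tGCI and HPC. Whether animals were pooled, which animals the IgG library came from and the event from which the hours are counted are details not given in the sources used here. Columns for Sham, tGCI26h and HPC0h were matched to their libraries through a shared letter or time only. The labels give the same sex, strain and age for all groups, and no genotype. Treatment and time differ together between HPC0h and tGCI26h and cannot be told apart. The listed sequences held 668857 tags in IgG, 159215 in Sham, 222511 in tGCI26h and 830634 in HPC0h. Since each group is a single library, conditions could not be tested against each other, and every 95% interval below covers counting error only.

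The 18S rRNA is the RNA of the small ribosomal subunit, which decodes the messenger RNA. Ribosomal RNA is by far the most abundant RNA of a cell, and its breakdown products are common in small RNA libraries, where they appear as many overlapping fragments of one strand. The piRNAs are small RNAs that guide PIWI proteins such as Piwil2 to target RNAs, best known for silencing transposons in the germ line. Primary piRNAs typically start with U, read as T in the sequences here, and partner piRNAs made by the ping-pong cycle come from the opposite strand and carry A at position 10. An IgG control shows which RNAs are recovered without the specific antibody.

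The members shown next lead the libraries or mark the parts of the family that differed most between them. In novel_5384_x347, capitals mark the stretch of 20 bases it shares with novel_3177_x580, the shortest overlap that the joining rule allows. In the other sequences, capitals mark the longest stretch shared with novel_5384_x347, and a sequence without capitals starts past its end or within its last few bases. They are written 5′ to 3′, in the order of their 5′ ends.
novel_8319_x231: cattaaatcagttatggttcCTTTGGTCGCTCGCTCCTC
novel_16076_x127: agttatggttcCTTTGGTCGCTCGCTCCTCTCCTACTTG
novel_5384_x347: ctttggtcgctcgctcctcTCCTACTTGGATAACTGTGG
novel_13707_x146: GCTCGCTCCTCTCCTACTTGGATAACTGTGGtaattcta
novel_4652_x401: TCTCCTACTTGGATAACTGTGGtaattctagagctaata
novel_3177_x580: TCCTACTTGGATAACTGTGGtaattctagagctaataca
novel_21385_x101: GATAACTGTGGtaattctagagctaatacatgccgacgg
novel_15101_x134: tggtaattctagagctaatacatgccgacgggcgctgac
novel_2167_x831: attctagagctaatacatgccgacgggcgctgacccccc
novel_8613_x224: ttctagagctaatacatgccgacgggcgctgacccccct

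Laid over one another, the 137 members covered a stretch of 116 nt, in which positions are counted from 1 at the 5′ end of the first member. They had 56 different 5′ ends and 50 different 3′ ends, so both ends were staggered along the overlap. The 20 bases in capitals in novel_3177_x580 lie at positions 43 to 62 and are held whole by 27 members. All members ran in the same direction, which follows from the joining rule, since it did not join reverse complements. No sequence of the raw table matched the reverse complement of the family over 16 bases. None of the members carried an rno_piR name.

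Members were 30 to 39 nt long, and 39 nt is also the longest length in the whole table. The 34 members of 39 nt held 72.9% of family tags in IgG, 77.0% in Sham, 77.1% in tGCI26h and 71.3% in HPC0h. Together with the 33 members of 38 nt they held between 91.2% and 94.3% in the 4 libraries. Sequences under 35 nt held at most 0.780%, in IgG. The family thus stood at the upper length limit of the table in every library, and fragments longer than this limit were not analysed here. Length shares over all sequences are not given, so nothing particular to the family is read from this.

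The counts of nested members are not independent. In the family 542 pairs consisted of a shorter member lying whole within a longer one, and in none of them did the shorter one exceed the longer in any library. The same held for all 11568 such pairs in the raw table. An example is the ladder that starts at position 24, where the IgG counts were 19 for novel_600_x2513 of 36 nt, 215 for novel_4399_x424 of 37 nt and 3585 for novel_5384_x347 of 39 nt. In 13 pairs of members the counts were equal in all 4 libraries, such as 0, 6, 26 and 40 tags for both novel_269_x4634 and novel_638_x2395 in Sham, tGCI26h, HPC0h and IgG. The sources used here do not say how the authors assigned tags to nested sequences, and a sum over members may count a tag more than once. Of the 137 members 99 lie within a longer listed sequence and 38 do not. Values for the 38 alone are given below for the library shares, some family ratios and the member counts. Shares and sums by length, end position and base draw on all 137 members, nested ones included.

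The family held 2.34% of listed tags in IgG (15651 tags, 2.30 to 2.38), 1.27% in Sham (2023 tags, 95% interval 1.22 to 1.33), 2.61% in tGCI26h (5805 tags, 2.54 to 2.68) and 1.63% in HPC0h (13505 tags, 1.60 to 1.65). It was thus lowest in Sham and highest in tGCI26h, and the IgG control lay closer to tGCI26h than either of the other Piwil2 libraries did. The ratio was 2.05 for tGCI26h over Sham (1.95 to 2.16), 0.623 for HPC0h over tGCI26h (0.604 to 0.643) and 1.28 for HPC0h over Sham (1.22 to 1.34). Against IgG, Sham stood at 0.543 (0.518 to 0.569), tGCI26h at 1.11 (1.08 to 1.15) and HPC0h at 0.695 (0.679 to 0.711). The library with the higher family share after ischemia therefore exceeded the control by a small margin. Its ratio over IgG turned to 0.955 when the 28S rRNA family of novel_88_x12235 was left out of the totals. Without novel_5384_x347 among the members it was 1.35 (1.31 to 1.39). These ratios compare shares of listed tags, so a lower share of one RNA cannot be told apart from a higher share of the others, and they do not measure the amount of RNA recovered.

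**Figure D1:**
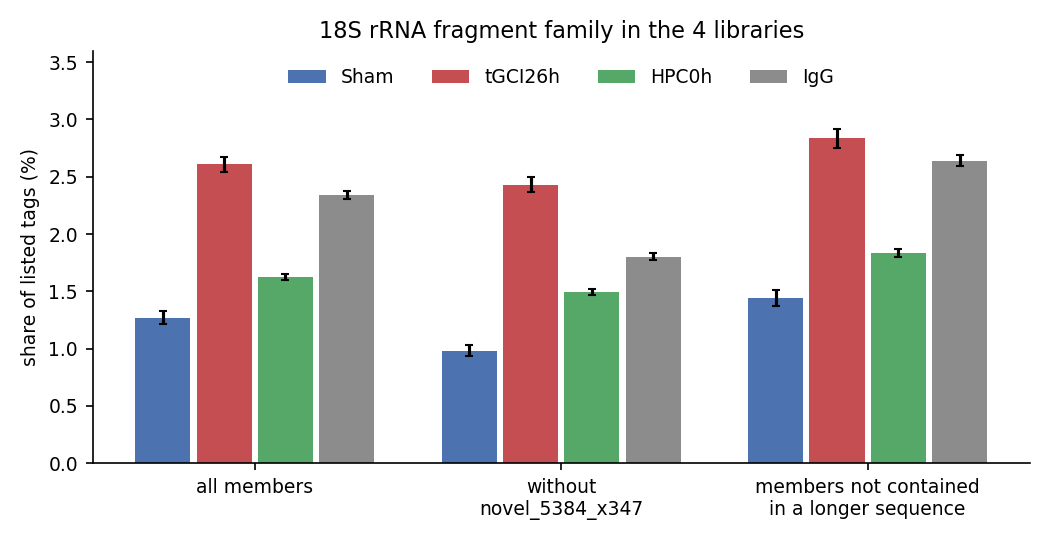
Share of listed tags in percent held by the family in each of the 4 libraries (bars, 1 library each) with 95% Clopper-Pearson intervals for counting error, for all 137 members, without novel_5384_x347 and for the 38 members not contained in a longer sequence. Sham is lowest and tGCI26h highest in each set, at 1.27% and 2.61% for all members.

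Using only the 38 members that lie in no longer sequence, and totals over such sequences, the shares were 2.64% in IgG, 1.44% in Sham, 2.83% in tGCI26h and 1.84% in HPC0h. On this basis the ratio of tGCI26h over Sham was 1.97 (1.86 to 2.09). The order of the 4 libraries was the same as with all members.

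Not all members were listed in every library. Sham, the library with the fewest tags, listed 74 of the 137 members, tGCI26h 98, HPC0h 125 and IgG 123. All 4 libraries listed 70 of them. Another 11 were listed in HPC0h alone and 8 in IgG alone. Of all 3129 sequences Sham listed 1749, tGCI26h 2102, HPC0h 2849 and IgG 2646, the same order of libraries. Counts over all sequences are not given for listing in every library or in a single one, so nothing is read from these. A blank cell is not proof of absence, since the smallest listed count is 2 and the authors' normalized table holds a value in 39 of the 63 blank Sham cells. Of the 38 members not contained in a longer sequence 35 were listed in Sham.

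The family did not move as one. Levels are given below as CPM, tag counts scaled to a common total of listed tags per library. The member with the most tags over all libraries, novel_5384_x347, had 3585 tags in IgG (5360 CPM), 462 in Sham (2902 CPM), 394 in tGCI26h (1771 CPM) and 1091 in HPC0h (1313 CPM). It was highest in the IgG control and, within the Piwil2 libraries, highest in Sham. Its ratio of tGCI26h over Sham was 0.610 (0.532 to 0.700), opposite in direction to the family sum. Without it, the other 136 members had a ratio of 2.48 (2.34 to 2.63), and relative to them novel_5384_x347 was 4.06-fold below its Sham level in tGCI26h (3.50 to 4.72). Between Sham and IgG no such shift was seen, with a ratio to the other members of 0.996 (0.890 to 1.11). HPC0h, in contrast, had 3.38-fold less novel_5384_x347 relative to the other members than IgG had (3.14 to 3.64).

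The member novel_3815_x485, which lacks the first base of novel_5384_x347 and lies within it, had 1135 CPM in IgG, 590 in Sham, 562 in tGCI26h and 483 in HPC0h. Its ratio of tGCI26h over Sham was 0.952, with an interval of 0.722 to 1.26 that includes 1. Summed, the 14 members with 5′ ends at positions 24 and 25 held 29.9% of family tags in IgG (29.1 to 30.6), 28.6% in Sham (26.7 to 30.6), 9.65% in tGCI26h (8.90 to 10.4) and 12.7% in HPC0h (12.1 to 13.3). Sham and IgG were thus alike in the weight of this site within the family, and tGCI26h and HPC0h were both well below them.

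Among the 5 most abundant members in tGCI26h, novel_5384_x347 came second and the others started farther downstream. Below these 5, novel_16076_x127, which starts upstream at position 13, had 1070 CPM in tGCI26h. The fragment novel_3177_x580, with its 5′ end at position 43, had 925 tags in IgG (1383 CPM), 135 in Sham (848 CPM), 744 in tGCI26h (3344 CPM) and 1295 in HPC0h (1559 CPM). It was the most abundant member in tGCI26h and in HPC0h, 3.94-fold above Sham in tGCI26h (3.28 to 4.77) and 2.42-fold higher than in IgG (2.19 to 2.67). Its neighbour novel_9345_x206, shifted by 1 base, had 531 CPM in IgG, 452 in Sham, 1375 in tGCI26h and 902 in HPC0h. Both stood above IgG in tGCI26h, with a ratio of 2.59 for novel_9345_x206 (2.22 to 3.03).

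Further along, novel_21385_x101, with its 5′ end at position 52, had 985 CPM in IgG, 371 in Sham, 1524 in tGCI26h and 655 in HPC0h. Beyond it, novel_15101_x134, from position 60, had 804 CPM in IgG, 383 in Sham, 1524 in tGCI26h and 417 in HPC0h. Both were highest in tGCI26h and lowest in Sham, with tGCI26h over Sham ratios of 4.11 (3.11 to 5.52) and 3.98 (3.02 to 5.31).

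The largest ratios of tGCI26h over Sham among members with at least 10 tags in both libraries belonged to 3 fragments. One was novel_4652_x401, from position 41, with 181 tags in IgG, 12 in Sham, 221 in tGCI26h and 240 in HPC0h, a ratio of 13.2 (7.39 to 25.9). In CPM it had 271 in IgG, 75.4 in Sham, 993 in tGCI26h and 289 in HPC0h, so tGCI26h stood apart from all other libraries. Next came novel_16076_x127, from position 13, with 612 tags in IgG, 15 in Sham, 238 in tGCI26h and 752 in HPC0h, a ratio of 11.4 (6.75 to 20.6). Its levels were 94.2 CPM in Sham against 1070, 905 and 915 CPM in tGCI26h, HPC0h and IgG, so here it was Sham that stood apart from the other 3 libraries. The third was novel_2713_x670, from position 53, with 315 tags in IgG, 17 in Sham, 159 in tGCI26h and 386 in HPC0h and a ratio of 6.69 (4.05 to 11.8).

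Some fragments at the 3′ side of the family ran the other way between Sham and tGCI26h, next to others that did not. The fragment novel_2167_x831, at positions 65 to 103, had 143 tags in IgG (214 CPM), 135 in Sham (848 CPM), 2 in tGCI26h (8.99 CPM) and 143 in HPC0h (172 CPM). It was as abundant as novel_3177_x580 in Sham and close to the smallest listed count in tGCI26h, a 94.3-fold lower ratio with a wide interval of 25.6 to 787. The authors' normalized table gives it 722 in Sham and 22 in tGCI26h. In contrast, novel_8994_x214, which starts 1 base before it, went from 4 Sham tags to 41 tGCI26h tags, a ratio of 7.33 (2.66 to 28.2). Starting 1 base after novel_2167_x831, novel_8613_x224 had 109 CPM in IgG, 490 in Sham, 80.9 in tGCI26h and 136 in HPC0h, and was 6.06-fold lower in tGCI26h than in Sham (3.59 to 10.7).

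The 8 members whose 3′ ends lay at position 103 or beyond held 1.83% of family tags in IgG (287 tags), 11.8% in Sham (238 tags), 0.758% in tGCI26h (44 tags) and 2.37% in HPC0h (320 tags). Sham stood apart, at 3.48-fold the IgG level (2.92 to 4.15), whereas tGCI26h was 7.56-fold below Sham (5.46 to 10.7). Of these 8 members 4 were abundant enough to be counted singly by the rule given below, with 3 lower and 1, novel_4559_x409, higher. That member was not listed in Sham and had 10 tags in tGCI26h, so it could pass only through tGCI26h. It lies within novel_8377_x230, 1 of the lower members, which also had 10 tags in tGCI26h. The sum rested partly on 1 fragment: without novel_2167_x831 the tGCI26h level was 3.43-fold below Sham (2.37 to 5.03).

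**Figure D2:**
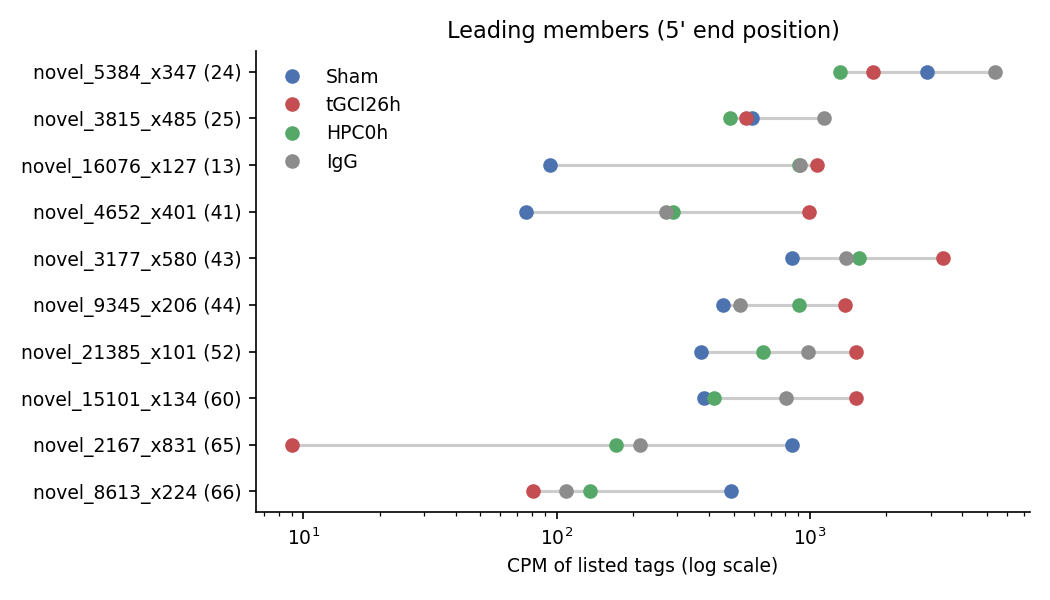
Level in CPM of listed tags (log scale) of 10 leading members in the 4 libraries (1 point per library), with the position of the 5′ end in brackets. The fragment novel_5384_x347 is highest in IgG at 5360 CPM, novel_3177_x580 is highest in tGCI26h at 3344 CPM, and novel_2167_x831 has 8.99 CPM in tGCI26h against 848 CPM in Sham.

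The 5′ ends fell into 6 groups, divided where at least 2 positions in a row held no 5′ end, a division made after the sequences were seen. The first group, 5 members from positions 1 to 5, had 743 CPM in IgG, 276 in Sham, 1371 in tGCI26h and 407 in HPC0h, a tGCI26h over Sham ratio of 4.96 (3.61 to 6.97). Its most abundant member, novel_8319_x231, had 341 CPM in IgG, 182 in Sham, 494 in tGCI26h and 148 in HPC0h. In this group tGCI26h was above IgG and both other Piwil2 libraries were below it.

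The second group, 47 members from positions 9 to 25 with novel_5384_x347 among them, had 11065 CPM in IgG, 4648 in Sham, 6952 in tGCI26h and 5322 in HPC0h. IgG had the highest level of the 4 libraries, and the group made up 47.3% of IgG family tags against 36.6% in Sham, 26.6% in tGCI26h and 32.7% in HPC0h. Its tGCI26h over Sham ratio of 1.50 (1.37 to 1.64) joined opposite parts: it was 0.692 for the 14 members at positions 24 and 25 (0.615 to 0.779). For the other 38 members with 5′ ends up to position 25, the first group included, it was 4.51 (3.89 to 5.25).

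The third group, 8 members from positions 32 to 36, had 1099 CPM in IgG, 785 in Sham, 881 in tGCI26h and 686 in HPC0h. Its ratio of tGCI26h over Sham was 1.12 (0.892 to 1.42), an interval that includes 1. The leading member novel_13707_x146 had 309 CPM in IgG, 458 in Sham, 369 in tGCI26h and 211 in HPC0h. Named for their ratios of HPC0h over tGCI26h, 2 other members of the group ran opposite ways. In novel_7600_x251, which lies within novel_13707_x146, HPC0h was lowest, with 27.7 CPM against 163 in Sham, 207 in tGCI26h and 88.2 in IgG. In novel_13152_x151 HPC0h had 252 CPM, against 121 in tGCI26h, 31.4 in Sham and 348 in IgG.

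The fourth and largest group, 73 members from positions 39 to 68, had 10463 CPM in IgG, 6953 in Sham, 16867 in tGCI26h and 9809 in HPC0h. It held 44.7% of family tags in IgG (43.9 to 45.5), 54.7% in Sham (52.5 to 56.9), 64.7% in tGCI26h (63.4 to 65.9) and 60.3% in HPC0h (59.5 to 61.2). Its ratio of tGCI26h over Sham was 2.43 (2.27 to 2.60). The remaining groups, of 1 and 3 members, held at most 0.346% of family tags in any library.

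The busiest 5′ end differed accordingly. Position 24 led in Sham with 23.6% of family tags and in IgG with 24.6%, and held 7.25% in tGCI26h and 9.18% in HPC0h. Position 43 led in tGCI26h with 12.8% and in HPC0h with 9.67%, and held 6.67% in Sham and 6.04% in IgG. Among 3′ ends, position 62 led in Sham and IgG with 27.5% and 27.8% of family tags, and position 81 led in tGCI26h and HPC0h with 16.0% and 14.2%.

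**Figure D3:**
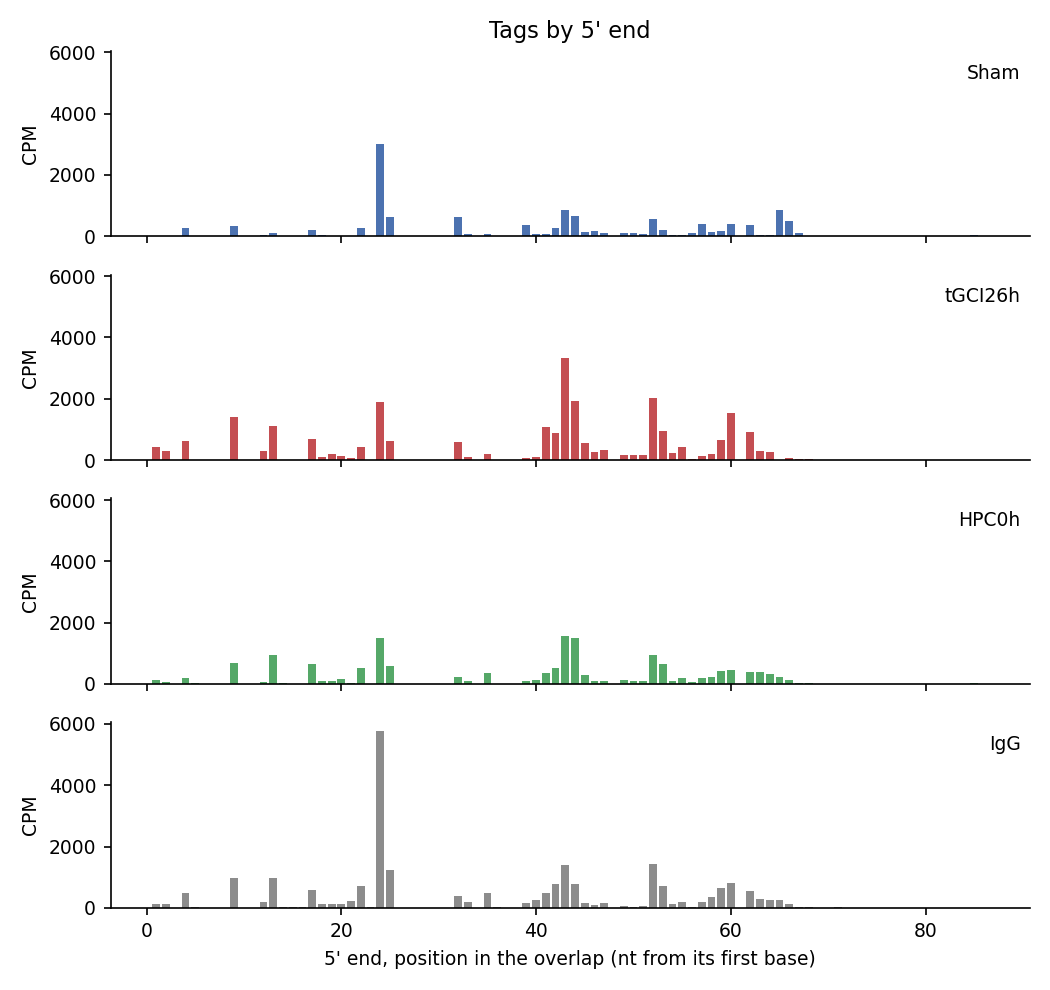
Tags by 5′ end in CPM (vertical axis, same scale in each panel) against the position of the 5′ end in the overlap in nt (horizontal axis) for the 4 libraries. The bar at position 24 is the highest in Sham and IgG, and the bar at position 43 the highest in tGCI26h and HPC0h.

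Family tags were also spread differently over members. The 5 most abundant members of each library held 41.8% of family tags in IgG, 44.7% in Sham, 36.6% in tGCI26h and 32.8% in HPC0h. Comparing how family tags were placed over all members, 25.1% would have to be moved to turn the Sham pattern into that of IgG, 42.0% to turn it into that of tGCI26h and 38.1% into that of HPC0h. Between tGCI26h and HPC0h the value was 21.7%, between HPC0h and IgG 24.1% and between tGCI26h and IgG 31.2%. Over the 38 members not contained in a longer sequence, Spearman's rho of the CPM was 0.904 for HPC0h and IgG, 0.807 for tGCI26h and HPC0h, 0.790 for tGCI26h and IgG, 0.603 for Sham and IgG, 0.571 for Sham and HPC0h and 0.369 for Sham and tGCI26h. By rank Sham was thus the least like the others, and it is also the shallowest library. The members overlap and share the library and its depth, so these values are descriptions.

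Members were next counted one by one. A sequence was measured where it had at least 10 tags in at least 1 of the 2 libraries, and counted as higher or lower where the ratio was at least 2 either way and its interval excluded 1. For tGCI26h over Sham 66 of the 137 members were measured and 71 were not. Of these, 38 were higher, 6 lower and 22 neither. Over all 1366 sequences measured in this comparison 27.2% were higher and 13.9% lower, and since the family was picked on this comparison nothing is read from the difference. Among the higher members 7 were not listed in Sham and could pass only through tGCI26h, and 14 lie within a longer listed sequence. The 59 measured members listed in both libraries had a median log2 ratio of 1.29, beside 0.29 over the 1240 such sequences of the whole table.

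**Figure D4:**
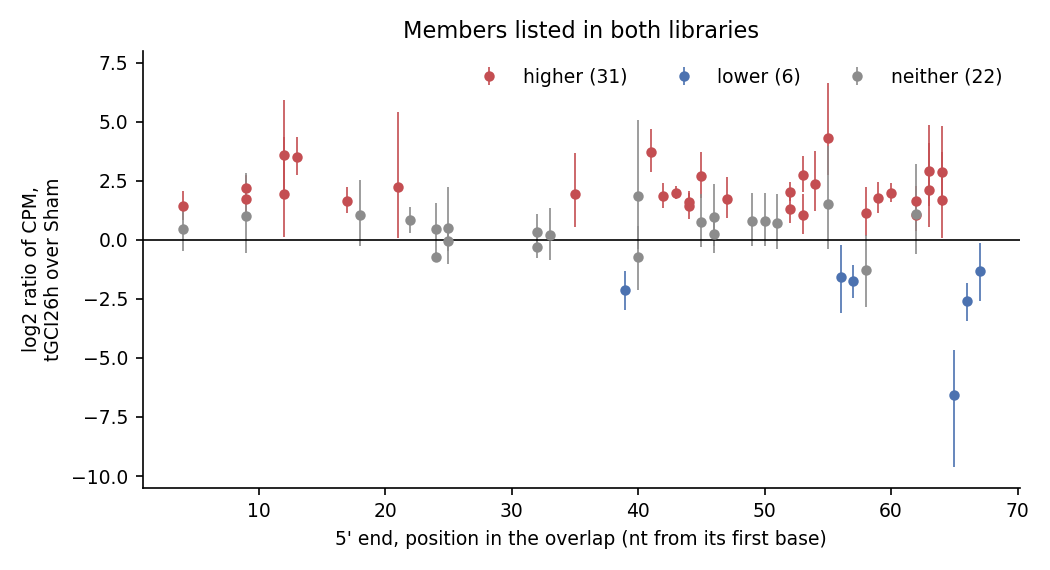
Log2 ratio of CPM of tGCI26h over Sham, with 95% intervals for counting error, for the 59 measured members listed in both libraries, against the position of the 5′ end in the overlap in nt. Of these, 31 were higher (red), 6 lower (blue) and 22 neither (grey), and 5 of the 6 lower ones start at positions 56 to 67, where 9 others were higher.

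The 6 lower members included novel_13318_x150, from position 39, with 170 CPM in IgG, 352 in Sham, 80.9 in tGCI26h and 99.9 in HPC0h. Each of the other 5 had its 3′ end at position 94 or beyond: novel_2602_x696, novel_5557_x336, novel_2167_x831, novel_8613_x224 and novel_8377_x230. More members of that region were higher than lower, however: of the 35 that end there 18 were measured, with 11 higher, 5 lower and 2 neither. Over all sequences 27.2% were higher and 13.9% lower. The higher members there included some not listed in Sham, such as novel_4559_x409, and some that lie within longer ones. As the family was picked on this comparison, nothing further is read from these counts. For novel_5557_x336 the levels were 166 CPM in IgG, 408 in Sham, 121 in tGCI26h and 173 in HPC0h, and its ratio of tGCI26h over Sham was 0.297 (0.182 to 0.472). Sham had the highest CPM of the 4 libraries in each of the 6, with only 15 tags there for novel_2602_x696 and 18 for novel_8377_x230.

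For HPC0h over tGCI26h 92 members were measured, with 23 lower and 8 higher (8.70%). Over all 2036 sequences measured, 21.0% were lower and 21.0% were higher. Among the 8 higher members 4 were not listed in tGCI26h and could pass only through HPC0h, and 6 lie within a longer listed sequence. The median log2 ratio of the 87 measured members listed in both libraries was -0.24, beside -0.03 over 1802 sequences. Lower members included novel_15101_x134, at 3.66-fold (3.14 to 4.26), novel_4652_x401, at 3.44-fold (2.85 to 4.14), and novel_5249_x356, from position 12, with 51 tags in tGCI26h and 35 in HPC0h, at 5.44-fold (3.47 to 8.62). Higher members included novel_13152_x151, from position 35, with 121 CPM in tGCI26h and 252 in HPC0h, a ratio of 2.07 (1.39 to 3.22). Another was novel_2167_x831, at 19.2 with an interval of 5.21 to 160 that reflects its 2 tags in tGCI26h. Leaving the 28S rRNA family of novel_88_x12235 out of the totals turned the split to 13 lower and 18 higher. Those totals raise every log2 ratio of this comparison by 0.54. No share over all sequences is given for them, so nothing is read from that split.

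The comparisons of tGCI26h with Sham and of HPC0h with tGCI26h share the tGCI26h library. A high or low count there enters both with opposite sign, so only the members' own values are given side by side. The ratio in the first and in the second comparison was 13.2 and 0.291 for novel_4652_x401, and 3.94 and 0.466 for novel_3177_x580. For novel_13152_x151, with 5 tags in Sham, it was 3.86 (1.47 to 12.8) and 2.07.

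For tGCI26h over IgG 101 members were measured, with 17 higher (16.8%) and 21 lower (20.8%). The values over all 1961 sequences were 16.6% and 19.5%, so the members' shares lay near the background. Of the 21 lower members 7 were not listed in tGCI26h and could pass only through IgG, some of them in the second 5′ end group. The median log2 ratio of the 89 members listed in both was -0.10, beside -0.11 over 1755 sequences. By 5′ end group, 13 of 56 measured members of the fourth group were higher and 9 lower, whereas 1 of 32 in the second group was higher and 9 lower. Among members with at least 10 tags in both libraries, the largest ratios belonged to novel_10442_x186, from position 49, with 27 tags in tGCI26h and 14 in IgG, at 5.80 (2.94 to 12.0), and novel_17464_x118, from position 45, with 99 and 59 tags, at 5.04 (3.62 to 7.09). The lowest among them were novel_5384_x347 at 0.330 (0.297 to 0.367), novel_13152_x151 at 0.348 (0.225 to 0.520) and novel_4399_x424 at 0.350 (0.221 to 0.530).

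Features that are typical of piRNAs varied within the family. For members that began with T the share of family tags was highest in tGCI26h, at 33.0% (31.7 to 34.2), against 29.8% in HPC0h (29.0 to 30.6) and 27.6% in Sham (25.6 to 29.6). Its interval in IgG ran from 25.4% to 26.7%. Members that began with C held 41.1% in IgG, 42.7% in Sham, 27.4% in tGCI26h and 31.1% in HPC0h, and novel_5384_x347 is one of them. The share of those that began with G was also highest in tGCI26h, at 19.6% against 14.1% in Sham. For those that began with A it was highest in HPC0h, at 23.7%. Members with A at position 10 held 9.52% in IgG, 11.9% in Sham, 17.0% in tGCI26h and 16.4% in HPC0h. Of the 137 members 47 began with T and 17 had A at position 10. As each 5′ end fixes both bases, these shares follow from which 5′ ends were used in each library and are not separate evidence. Shares over all sequences are not given, so no likeness to piRNAs is read from them.

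One member, novel_19191_x109, differed from the others by 1 base, T58C, with T the base at position 58 in the overlap of the other members and C the base of this member. The remaining 136 members matched the overlap throughout. It had 25 tags in IgG (37.4 CPM), 21 in Sham (132 CPM), 35 in tGCI26h (157 CPM) and 19 in HPC0h (22.9 CPM). Sham and tGCI26h did not differ beyond counting error, with a ratio of 1.19 (0.675 to 2.16), while tGCI26h was 4.21-fold above IgG (2.45 to 7.34) and HPC0h was 6.88-fold below tGCI26h (3.83 to 12.7). Whether this sequence is from the rat or another organism was not tested, and it is not printed. It shares at most 23 bases in a row with another member, and a rule of 25 bases would leave it out together with 3 fragments at the far 3′ side, novel_6867_x275, novel_10889_x179 and novel_12041_x163, which had at most 17 tags in any library. Outside the family the longest stretch that any sequence of the raw table shared with a member was 12 bases.

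The 3 other families that earlier work named 18S rRNA, and the family of novel_88_x12235 at the 5′ end of 28S rRNA (large ribosomal subunit), were used to see where this family differed. Among the 16 families with at least 50 members it ranked second by its ratio of tGCI26h over Sham. The ratio was 1.21 (1.18 to 1.24) in the 292 sequences of the family of novel_12320_x160, 1.31 (1.26 to 1.37) in the 144 of novel_7652_x249 and 1.06 (1.02 to 1.11) in the 74 of novel_9668_x200, which turned to 0.922 and 0.914 when libraries were scaled by TMM factors or by median-of-ratios size factors. Relative to these, the family of novel_5384_x347 was 1.70-fold (1.61 to 1.80), 1.56-fold (1.46 to 1.67) and 1.93-fold (1.81 to 2.07) above Sham in tGCI26h. Relative to the 28S family, whose own ratio was 0.950 (0.940 to 0.961), it was 2.16-fold higher (2.05 to 2.28). These ratios within a library do not depend on how libraries are scaled, but they repeat the comparison on which the family was picked.

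Ratios over IgG are given next for the same families. The values of this family in Sham and tGCI26h were used to pick it, so its place among the families there is a description only. The same holds for its ratio of HPC0h over tGCI26h. In Sham the family of novel_5384_x347 stood at 0.543 of the IgG share and that of novel_7652_x249 at 0.564 (0.543 to 0.586), a ratio between the 2 of 0.962 with an interval of 0.906 to 1.02 that includes 1. The family of novel_12320_x160 stood at 0.840 (0.823 to 0.858) and that of novel_9668_x200 at 1.20 (1.15 to 1.24). In tGCI26h the order was 0.741 (0.719 to 0.763) for novel_7652_x249, 1.01 (0.997 to 1.03) for novel_12320_x160, 1.11 (1.08 to 1.15) for novel_5384_x347 and 1.27 (1.23 to 1.31) for novel_9668_x200. HPC0h was below IgG in each of the 4 families, with ratios of 0.570 for novel_7652_x249, 0.695 for novel_5384_x347, 0.760 for novel_12320_x160 and 0.889 for novel_9668_x200, the last of which turned to 1.11 when the 28S family was left out of the totals. The 28S family was above IgG there, at 1.28 (1.27 to 1.29), and it held 52.9% of all HPC0h tags. From tGCI26h to HPC0h the ratios were 0.623 for novel_5384_x347, 0.698 for novel_9668_x200, 0.749 for novel_12320_x160 and 0.769 for novel_7652_x249, against 1.68 for the 28S family. With that family left out of the totals, novel_5384_x347 stood at 0.907 and the other 3 at 1.02 for novel_9668_x200, 1.09 for novel_12320_x160 and 1.12 for novel_7652_x249.

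**Figure D5:**
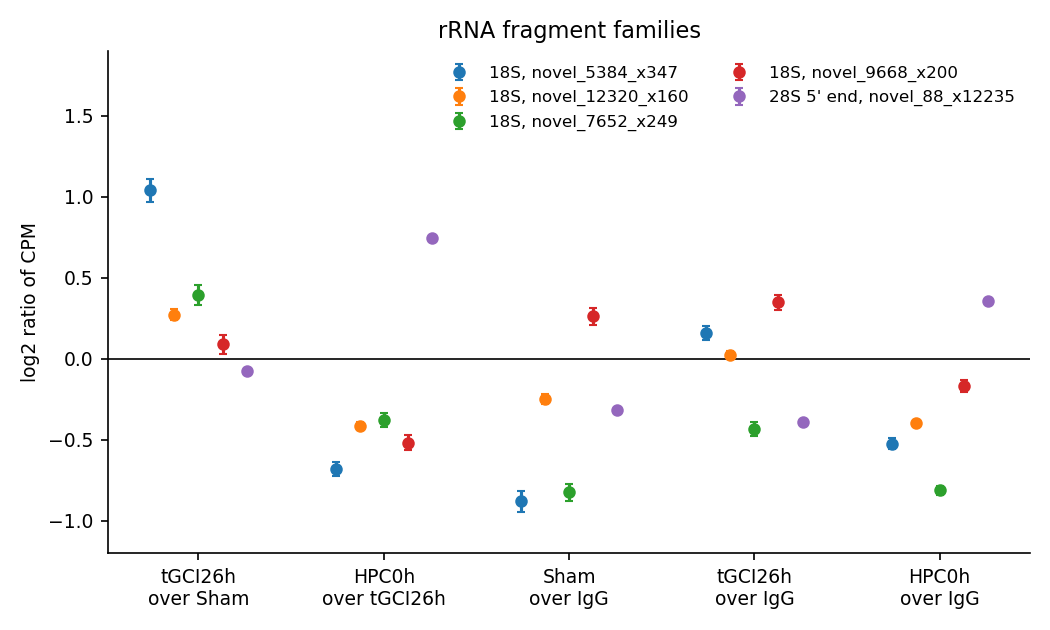
Log2 ratio of CPM with 95% intervals for counting error (some smaller than the points) for 5 comparisons of libraries in the family of novel_5384_x347, 3 other 18S rRNA families and the 28S rRNA family of novel_88_x12235. In tGCI26h over Sham the family of novel_5384_x347 is highest, at a ratio of 2.05, and over IgG in Sham it is lowest, at 0.543. Both values draw on libraries on which the family was picked.

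The authors' normalized table listed all 137 members, and gave 113 of them a value in Sham and 124 in tGCI26h, 137 in HPC0h and 134 in IgG. Of its summed values the family held 2.42% in IgG, 1.34% in Sham, 2.68% in tGCI26h and 1.71% in HPC0h, in the same order as by raw tags. For novel_5384_x347 the values were 4855 in IgG, 2461 in Sham, 1568 in tGCI26h and 1253 in HPC0h, and for novel_3177_x580 they were 1264 in IgG, 697 in Sham, 2877 in tGCI26h and 1451 in HPC0h. Opposite courses of these 2 fragments between Sham and tGCI26h were thus present in both deposited tables. Both tables hold values of the same libraries, so the second is not separate evidence.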

How the data were processed

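Per the labels' protocols, adaptors were ligated, cDNA was amplified and amplicons with inserts of about 30 nt were selected and sequenced. Tools listed in the submitters' processing notes are Novoalign 3.02.12 and cutadapt 1.9.3. Per the file headers, the raw table deposited by the authors holds tag counts per sequence, and all comparisons used these counts. Per the file headers, the authors' second table holds normalized tag counts, treated as a score because its scaling is unknown. Emptied lines numbered 40 in the raw and 46 in the normalized file. Blanks were taken as 0 counts in ratios. For a sequence blank in a library no fold against it is printed, but the sequence could still be counted as higher or lower.

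Counts were divided by the totals of listed tags (CPM). Ratios carry exact 95% intervals (Clopper-Pearson on the first library's part of the 2 counts), and shares carry Clopper-Pearson intervals. A ratio of 2 ratios carries an exact conditional interval. PCR copies without molecular identifiers are not independent molecules. Totals of listed tags stand in for library depth, which was not used here. Scaling alternatives came from edgeR 4.0.16 (TMM) and DESeq2 1.42.0 (size factors only). The remaining steps used Python 3.11.15 with scipy 1.17.1 and were tested on simulated counts. Named members are novel_5384_x347, the 5 leading members of each library, the 3 largest ratios either way in the 3 comparisons counted by member (at least 10 tags in both libraries), the leading member of each 5′ end group holding at least 5% of family tags, and members that differ from the overlap. The ladder and equal-count examples, novel_2602_x696, novel_8377_x230, novel_8994_x214, novel_4559_x409 and the 3 fragments at the far 3′ side were named after their values were seen. Members and lists were chosen with earlier results of these data known.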

Additional observations from a re-analysis of the deposited data

How the results depend on the processing

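No paired analysis was possible because each group has 1 library. Of 78 alternative values for the 6 family ratios and 6 member counts, 45 stayed within the interval or within 1.5 times the count, 32 moved and 1 reversed. TMM factors moved every log2 ratio of tGCI26h over Sham by -0.21 and of HPC0h over tGCI26h by 0.24. With them the family ratio was 1.78 for tGCI26h over Sham, 0.736 for HPC0h over tGCI26h, 0.585 for Sham over IgG, 1.04 for tGCI26h over IgG and 0.767 for HPC0h over IgG. Median-of-ratios size factors gave 1.77 for tGCI26h over Sham, 0.688 for HPC0h over tGCI26h, 1.21 for HPC0h over Sham, 0.629 for Sham over IgG and 0.764 for HPC0h over IgG. Totals without the 28S family of novel_88_x12235 gave 0.907 for HPC0h over tGCI26h, 1.82 for HPC0h over Sham, 0.476 for Sham over IgG and 0.866 for HPC0h over IgG. They turned tGCI26h over IgG to 0.955, since that family holds a larger share of IgG tags. Without novel_5384_x347 the ratios were 2.48 for tGCI26h over Sham, 1.52 for HPC0h over Sham, 1.35 for tGCI26h over IgG and 0.828 for HPC0h over IgG. Using sequences not contained in a longer one, a setting chosen after seeing the data, gave 0.648 for HPC0h over tGCI26h and 1.07 for tGCI26h over IgG.

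A minimum of 50 tags in at least 1 library left fewer members measured: 24 higher for tGCI26h over Sham, 3 higher and 14 lower for HPC0h over tGCI26h, and 9 higher and 11 lower for tGCI26h over IgG. Counting only members not contained in a longer one gave 24 higher for tGCI26h over Sham, 2 higher and 13 lower for HPC0h over tGCI26h, and 9 higher and 6 lower for tGCI26h over IgG. Totals without the 28S family gave 18 higher and 13 lower for HPC0h over tGCI26h. No shares over all sequences stand beside these alternative counts, so they show only how the counts depend on the settings. Scaling alternatives for the other families were added after seeing the data. The normalized table and a joining stretch of 25 bases moved no family ratio beyond its interval. Sham, with 2023 family tags, limits the precision of every comparison it enters.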

Other observations

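At least 20 bases in a row were shared with a member by 34 sequences found in the normalized table alone. Their normalized values summed to 64 in IgG (24 of them with a value), 27 in Sham (5), 31 in tGCI26h (11) and 45 in HPC0h (25). None reached a normalized value of 10 in any library, so they add little to the family.

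Among normalized values, 19406 pairs consisted of a shorter sequence within a longer one, and in 25 of them the shorter exceeded the longer in at least 1 library, where the raw table had no such pair among 11568.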
